A study of Mus musculus with 2 samples.

Results

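The replication-dependent histone genes were read in single liver cells of mice at postnatal day 15. They were taken by symbol: 67 of the 32285 genes in the count tables begin with Hist1h, Hist2h, Hist3h or Hist4h, and the 61 that held 20 or more UMIs (unique molecular identifiers, which count captured RNA molecules) over all annotated cells were kept. Of these, 5 encode linker histone H1, 16 encode H2A, 16 H2B, 12 H3 and 12 H4. Just inside the minimum were Hist1h2ah with 22 UMIs, Hist1h3h with 23 and Hist1h2ao with 31. The 6 genes outside it held 0 to 7 UMIs, with Hist1h4m at 7, Hist1h1t at 3, Hist2h2aa2 at 1, and Hist1h2bq, Hist1h2ba and Hist1h2aa at 0.

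The study asked what the transcription factor c-Maf does as fetal liver endothelium matures into the zonated sinusoids of the liver. It holds 2 libraries of endothelial and hematopoietic cells sorted by flow cytometry, and each pooled 1 male and 1 female mouse. The control library is labelled WT. The other, labelled KO, comes from mice whose endothelial cells lack c-Maf, and is called c-Maf KO here. The sources used here do not give the driver of the deletion, the strain or the number of lines, and the labels describe no other allele or treatment in either group. With 1 library per group no difference could be tested, and genotype and library cannot be told apart. Every interval below is an exact 95% interval and covers counting error only.

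Replication-dependent histone genes supply the histone proteins that wrap newly copied DNA, and their transcripts build up while a cell replicates its genome and are degraded when replication stops. Unlike other messenger RNAs, most end in a conserved stem-loop in place of a poly(A) tail, bound by the stem-loop binding protein SLBP. A library primed on poly(A), as this platform makes, reads such transcripts only where an A-rich stretch or a polyadenylated form is present. Some members of the family are known to make polyadenylated transcripts in cells that no longer divide.

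The stem-loop is shown for 8 members that the results turn on, chosen because they differ in how much annotated transcript follows it. A first stem arm GGNNCT, a loop TTTN and a second arm AGNNCC, with nothing between them, were searched on the transcript strand after the stop codon of each gene's longest annotated coding transcript (GENCODE M21 on GRCm38). They were found in 40 of the 61 members. In a wider search, over every annotated coding transcript of a gene, they were found in 61 of 22527 coding genes (0.271%). Capitals mark the stem-loop.
Hist1h2ap: aaaaGGCTCTTTTCAGAGCCatc
Hist1h3c: aaaaGGCTCTTTTAAGAGCCacct
Hist1h2ae: caaaGGCTCTTTTCAGAGCCattc
Hist3h2ba: caaaGGCTCTTTTCAGAGCCacct
Hist1h4d: caaaGGCCCTTTTCAGGGCCacta
Hist1h1c: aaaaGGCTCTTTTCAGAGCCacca
Hist3h2a: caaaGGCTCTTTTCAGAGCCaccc
Hist4h4: caaaGGCCCTTTTCAGGGCCcaca
Hist1h2ap, an H2A gene at chr13:21833026-21833507 (minus strand), ends 3 bases after the stem-loop, and Hist1h3c, an H3 gene at chr13:23744973-23745602 (minus strand), ends 74 bases after it. The H2A gene Hist1h2ae at chr13:23570517-23571220 (minus strand) runs on for 151 bases, and the H2B gene Hist3h2ba at chr11:58948920-58949533 (plus strand) for 169. The H4 gene Hist1h4d at chr13:23581598-23582735 (plus strand) and the H1 gene Hist1h1c at chr13:23738808-23740367 (plus strand) run on for 770 and 840 bases. The longest of these tails belong to the H2A gene Hist3h2a at chr11:58954685-58956830 (plus strand), with 1643 bases, and the H4 gene Hist4h4 at chr6:136801553-136804415 (minus strand), with 2445. All 8 have a single exon, as do 57 of the 61 members.

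The 16 bases of the stem-loop read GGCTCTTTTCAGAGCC in 24 members, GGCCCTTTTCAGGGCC in 6, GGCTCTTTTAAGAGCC in 5, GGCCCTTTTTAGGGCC in 2, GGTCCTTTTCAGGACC in 2 and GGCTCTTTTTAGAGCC in 1. Of the 21 members with no match in their longest coding transcript, 13 have fewer than 16 annotated bases after the stop codon, so the letters could not have been found there. A member with no match there may still hold one in a shorter coding transcript. The H1 gene Hist1h1b is among these, with 0 annotated bases after its stop codon. The H2B gene Hist1h2bc, with 2 exons and 742 bases after the stop codon, was searched and had no match. Many members are near copies of one another. In 24 of them more than 50% of the transcript's 90-base windows also occur in other genes, 92.4% for Hist1h2ap, so reads may have been shared or lost between copies and the value of any one such gene is uncertain. Further, 19 members overlap a gene on the opposite strand and 7 a gene on the same strand, among them Hist1h1e with Hist1h2be and Hist3h2a with Trim17.

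Promoter windows of 300 bases, from 250 before to 50 after the start, were found in RefSeq (GRCm38.p6) for 56 of the 61 members. They are printed for Hist1h1b, whose level differed widely between phase calls, and for the chromosome 11 neighbours Hist3h2ba, too scarce in the endothelium to be read there, and Hist3h2a, the member called lower there. Capitals mark the letters CCAAT, the TATA box letters TATAAA and the octamer ATTTGCAT, all searched on both strands, so a match on the other strand shows as the reverse complement.
Hist1h1b, chr13:21780576-21780875 (minus strand): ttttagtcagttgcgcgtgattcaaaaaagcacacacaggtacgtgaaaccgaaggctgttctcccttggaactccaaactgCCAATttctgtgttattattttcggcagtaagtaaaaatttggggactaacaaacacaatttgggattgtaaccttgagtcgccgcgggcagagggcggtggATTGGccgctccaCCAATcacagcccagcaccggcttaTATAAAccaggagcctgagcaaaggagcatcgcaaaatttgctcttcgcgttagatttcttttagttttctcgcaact
Hist3h2ba, chr11:58948661-58948960 (plus strand): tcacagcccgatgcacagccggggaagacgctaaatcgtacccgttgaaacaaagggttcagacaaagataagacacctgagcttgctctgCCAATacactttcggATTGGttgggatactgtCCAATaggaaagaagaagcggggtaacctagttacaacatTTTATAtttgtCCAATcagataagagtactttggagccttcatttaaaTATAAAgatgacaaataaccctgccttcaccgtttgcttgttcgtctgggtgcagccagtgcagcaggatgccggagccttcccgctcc
Hist3h2a, chr11:58954435-58954734 (plus strand): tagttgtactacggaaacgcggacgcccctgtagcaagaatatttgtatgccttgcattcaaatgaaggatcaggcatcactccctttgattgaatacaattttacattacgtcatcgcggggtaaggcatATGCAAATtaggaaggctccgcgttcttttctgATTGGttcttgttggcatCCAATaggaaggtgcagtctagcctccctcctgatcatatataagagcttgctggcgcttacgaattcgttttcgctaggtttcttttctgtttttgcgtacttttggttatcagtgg
CCAAT, the letters bound by the factor NF-Y, stood in 48 of the 56 windows (85.7%), against 37.4% of all promoter windows in the table. TATAAA, the TATA box, stood in 32 (57.1%) against 13.6%. ATTTGCAT, the octamer bound by POU factors, stood in 11 (19.6%) against 1.74%. The types differed: CCAAT stood in every H1, H2A, H2B and H3 window but in 3 of the 11 H4 windows (27.3%), and the octamer stood in 6 of 16 H2A and 5 of 14 H2B windows and in none of the H1, H3 and H4 windows. Hist3h2a carries the octamer and no TATAAA, Hist3h2ba carries TATAAA and no octamer, and both carry CCAAT. The windows are not all separate DNA, because some neighbours on opposite strands have windows that overlap. Those of Hist1h2ah and Hist1h2bk do, and the same octamer is counted in both. The windows of Hist1h2ai and Hist1h2bl, Hist1h2an and Hist1h2bp, and Hist1h2ag and Hist1h2bj overlap too. A match describes the letters only.

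The control table held 9038 barcodes and 54143192 UMIs, and that of c-Maf KO held 9058 and 60281713. The authors' annotation covered 7669 and 8166 of these cells, with a cluster name and a cell cycle phase for each. Clusters S, S2, KOS_1, KOS_2, KOS_3, PV and C-EC were read as endothelial (2948 control and 2991 c-Maf KO cells, median 4985.5 and 7320 UMIs) and all others except D and H as hematopoietic (4599 and 5085 cells, median 4669 and 3772). The libraries shared 25 barcodes, 21 of them annotated in both. Maf itself fell from 2070 to 162 counts per 1000000 UMIs (CPM) between control and c-Maf KO endothelial cells. The sum of 9 endothelial markers was 9575 and 6597 CPM in the cells read as endothelial and 447 and 244 CPM in the hematopoietic cells, and the sum of 8 sinusoidal markers was 11459 and 3395 CPM in the former. Marker sums of other cells in the endothelial clusters were 283 and 26.5 CPM for 8 Kupffer genes, 54.5 and 126 for 8 B lineage genes, and 99.0 and 120 for 8 neutrophil genes, of which 1 was at 0 in control. Their part in the results was not tested.

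In the endothelium the histone genes rose together in the c-Maf KO library. Their summed level was 249 CPM (242 to 257, from 4050 UMIs) in the control library and 777 CPM (766 to 789, from 17577 UMIs) in the c-Maf KO library, 3.12-fold or 1.64 on the log2 scale (1.59 to 1.69). A member was called higher or lower where the ratio was at least 1.5-fold, its interval excluded equality and both sums together held 50 or more UMIs. By that rule 30 of the 33 members with enough UMIs were higher, while 14.2% of all 11927 genes read the same way were higher. Hist3h2a was lower (15.5% of all genes were lower), and Hist4h4 and Hist2h4 were called neither way. The call of Hist3h2a was lost in cells typed as male by their transcripts, in cells called G1, at 2-fold, as the mean of each cell's share, and with mitochondrial, ribosomal protein, hemoglobin and immunoglobulin genes left out of the denominator. The median log2 ratio was 1.58 over the 33 members and -0.08 over all genes. The other 28 members held 49 or fewer UMIs over both libraries and were not read one by one.

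**Figure D1:**
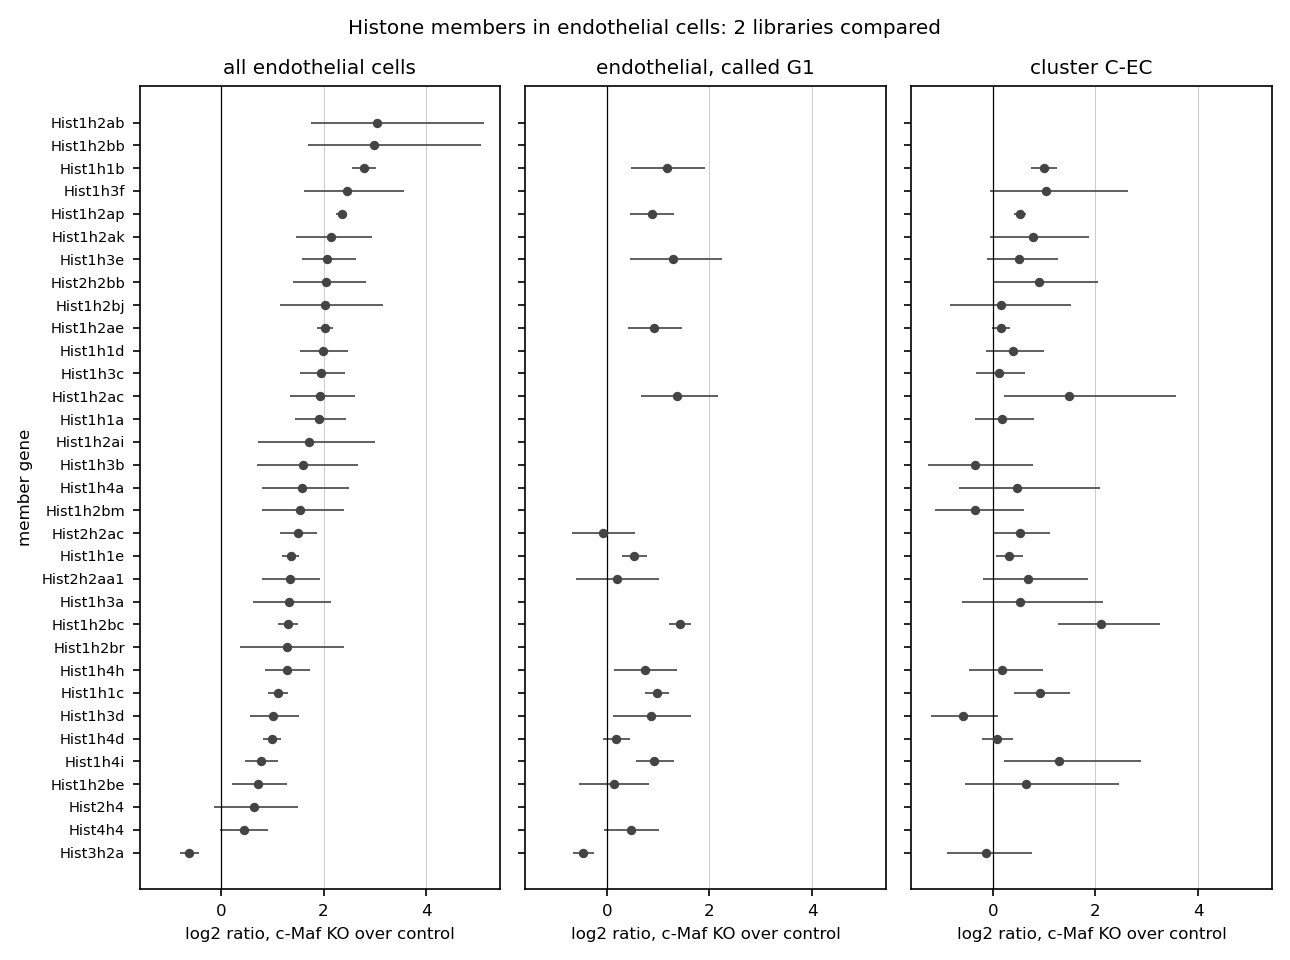
Log2 ratio between the libraries (c-Maf KO over control) for the 33 histone genes with 50 or more UMIs in endothelial cells, in all endothelial cells, in those called G1 and in cluster C-EC; points are ratios and bars exact 95% intervals for counting error only, drawn where a class held 50 or more UMIs of the gene. In all endothelial cells ratios run from -0.62 for Hist3h2a to 3.04 for Hist1h2ab, and 30 of the 33 are called higher.

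All 5 linker histone genes, whose proteins bind the DNA entering and leaving the nucleosome, rose in the endothelial cells. Hist1h1b rose from 10.5 to 72.2 CPM, a log2 ratio of 2.78 (2.56 to 3.02). Hist1h1d rose from 2.96 to 11.8 CPM (1.99, interval 1.55 to 2.47) and Hist1h1a from 2.59 to 9.86 CPM (1.92, interval 1.45 to 2.44). Hist1h1e and Hist1h1c had the smaller ratios: Hist1h1e rose from 24.3 to 62.5 CPM (1.36, interval 1.20 to 1.53) and Hist1h1c from 16.8 to 36.1 CPM (1.11, interval 0.91 to 1.31). The interval of Hist1h1b does not overlap that of any of the other 4. CPM values are not scaled for transcript length, so levels are compared between libraries and not between genes.

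Among the H2A genes, one of the core histones of the nucleosome, Hist1h2ap rose from 47.7 to 244 CPM (log2 2.35, interval 2.25 to 2.47). Hist1h2ae rose from 23.1 to 94.1 CPM (2.02, interval 1.87 to 2.19), Hist2h2ac from 5.11 to 14.5 CPM (1.49, interval 1.15 to 1.87) and Hist1h2ac from 1.60 to 6.19 CPM (1.93, interval 1.34 to 2.61). Hist1h2ab had the highest ratio of all, 3.04, on 4 control UMIs against 51, and its interval reaches from 1.75 to 5.12. Hist3h2a went the other way, from 32.2 to 21 CPM (-0.62, interval -0.80 to -0.44). Of the H2B genes, which pair with H2A, Hist1h2bc rose from 16.6 to 40.8 CPM (1.30, interval 1.10 to 1.5), and Hist1h2bb from 0.246 to 2.17 CPM (2.98, interval 1.69 to 5.07) on 4 control UMIs.

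The H3 genes with enough UMIs were all higher, among them Hist1h3c, from 3.26 to 12.8 CPM (log2 1.96, interval 1.54 to 2.42), and Hist1h3e, from 2.28 to 9.64 CPM (2.06, interval 1.57 to 2.62). Several H4 genes, the partners of H3, had low ratios. Hist1h4d rose from 20.6 to 41.1 CPM (0.99, interval 0.81 to 1.18), Hist1h4h from 3.63 to 8.89 CPM (1.28, interval 0.86 to 1.73) and Hist1h4i from 6.84 to 11.8 CPM (0.78, interval 0.46 to 1.12). Hist4h4 stood at 3.63 and 4.95 CPM (0.44, interval -0.02 to 0.93) and Hist2h4 at 1.23 and 1.95 CPM (0.64, interval -0.13 to 1.5), neither of them called.

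The mix of cell cycle phases differed between the libraries as well. The authors' annotation calls each cell G1, S or G2M from phase scores, and the sources used here do not name the genes behind the scores. Of the endothelial cells, 92.7% of the control and 69.6% of the c-Maf KO library were called G1, 4.82% and 20.2% S, and 2.48% and 10.3% G2M. The cycling endothelial cluster C-EC made up 3.02% of the endothelial cells in control and 13.6% in c-Maf KO, and held 44.6% and 78.2% of their histone UMIs. Weighting the c-Maf KO phases by the control phase mix gave a log2 ratio of 0.45 for the summed level, and weighting by the control cluster mix gave 0.21, against 1.64 for all endothelial cells. The control cluster mix lies mainly in S and S2, which held 1320 and 1459 control but 223 and 113 c-Maf KO cells. KOS_1 (1 control and 1356 c-Maf KO cells) and KOS_3 (2 and 238) get almost no weight. Most c-Maf KO endothelial cells thus count little in the 0.21.

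Within a phase the 2 libraries were closer. In G1-called endothelial cells the summed level was 138.5 CPM in control and 211 in c-Maf KO (log2 0.61, interval 0.53 to 0.69). In S-called cells it was 597 and 828 CPM (0.47), and in G2M-called cells 3543 and 4078 CPM (0.20). In C-EC it was 2831 CPM (2702 to 2965) and 3916 (3851 to 3982), a log2 ratio of 0.47 (0.40 to 0.54). In the endothelial cells outside C-EC it was 143.9 and 200.9 CPM (0.48), with 9 of 18 members higher (13.2% of all genes) and 1 lower (14.7%).

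In G1-called endothelial cells 10 of 17 members were higher in c-Maf KO (11.0% of all genes were) and 0 were lower (13.8%). Hist1h2bc had the highest ratio, with 16.9 and 45.4 CPM (log2 1.42, interval 1.22 to 1.64). It was followed by Hist1h2ac, at 1.44 and 3.78 CPM (1.37), Hist1h3e, at 1.05 and 2.61 (1.29), and Hist1h1b, at 1.64 and 3.71 (1.17). Hist1h1c, at 15 and 29.4 CPM (0.97), Hist1h4i, at 6.42 and 12.2 (0.93), Hist1h2ae, at 3.14 and 5.99 (0.92), and Hist1h2ap, at 4.78 and 8.80 (0.87), were also higher, as were Hist1h3d and Hist1h4h. Not called were Hist1h1e, at 15.7 and 22.7 CPM (0.53), Hist1h4d, at 15 and 17.0 (0.18), and Hist3h2a, at 32.6 and 23.8 (-0.46).

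In S-called endothelial cells 3 of 12 members were higher (6.44% of all genes), and these were Hist1h2ae, at 42.6 and 105 CPM, Hist1h1b, at 38.8 and 97.1, and Hist1h2bc, at 1.94 and 11.9. Hist3h2a, at 27.1 and 10.8 CPM, was lower (12.3%). In G2M-called cells 3 of 22 members were higher (6.25%), namely Hist1h1b, at 272 and 437 CPM, Hist1h2bc, at 21.8 and 66.5, and Hist1h2ac, at 4.35 and 22.3, while Hist1h3d, at 56.6 and 28.5, was lower (15%). In C-EC 6 of 27 were higher (5.70%) and 0 lower (14.6%). Hist1h2bc stood at 15.7 and 70.7 CPM there (log2 2.10, interval 1.27 to 3.25), Hist1h2ac at 6.27 and 19.7 (1.49), Hist1h4i at 9.41 and 24.8 (1.29), Hist1h1b at 218 and 435 (0.99), Hist1h1c at 50.2 and 95.8 (0.91) and Hist2h2bb at 15.7 and 30.5 (0.90). Hist1h2ap, at 1035 and 1499 CPM (0.53), was called neither way. Hist1h2bc was called higher in every one of these phases and in C-EC, as was Hist1h1b. In S calls Hist1h2bc rested on 1 control UMI. These classes overlap, since C-EC held 61 of the 73 control and 284 of the 307 c-Maf KO endothelial cells called G2M.

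The share of cells with any histone UMI moved the same way. Each cell was thinned to 1128 UMIs, which left out 363 control and 231 c-Maf KO endothelial cells. Of the rest, 14.5% (13.2 to 15.9) in control and 27.1% (25.5 to 28.8) in c-Maf KO held 1 or more histone UMI, against 43.3% and 61.2% before thinning. By phase in control and c-Maf KO the thinned shares were 12.6% and 18.5% in G1, 24.7% and 28.6% in S, and 71.9% and 82.0% in G2M. No cell type lacks histone genes, so no share for free RNA could be set beside these. Among clusters with 20 or more cells the lowest share in control was that of S2 (11.9%) and in c-Maf KO that of S (13.5%). S held 13.3% in control (median 2419 UMIs). S2 stood at 11.9% in control (median 7382 UMIs) and 15% in c-Maf KO (median 8000).

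In hematopoietic cells the summed histone level was lowest in G1 calls and highest in G2M calls, while single members differed in extent and, from G1 to S, in direction. Their sum was 298 CPM in G1, 2381 in S and 7483 in G2M calls of the control library, and 460, 3410 and 8580 in the c-Maf KO library. From G1 to G2M 46 of 46 members rose in control (15.1% of all genes did) and 48 of 49 in c-Maf KO (14.0%), where Hist3h2a was the exception at 42.1 and 40.8 CPM. From G1 to S 25 of 31 rose in control (13.6%) and 32 of 38 in c-Maf KO (16.3%). One member fell in each library (20.7% and 24.0% of all genes did), and it was Hist3h2a, from 30.1 to 14.4 CPM in control (log2 -1.05) and from 42.1 to 18.4 in c-Maf KO (-1.19). Hist2h4, Hist3h2ba, Hist1h2bc and Hist1h1c were called neither way in both libraries. Endothelial cells, with fewer UMIs, also rose from G1 to G2M in most members, 10 of 13 in control (11.2%) and 22 of 25 in c-Maf KO (10.5%).

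**Figure D2:**
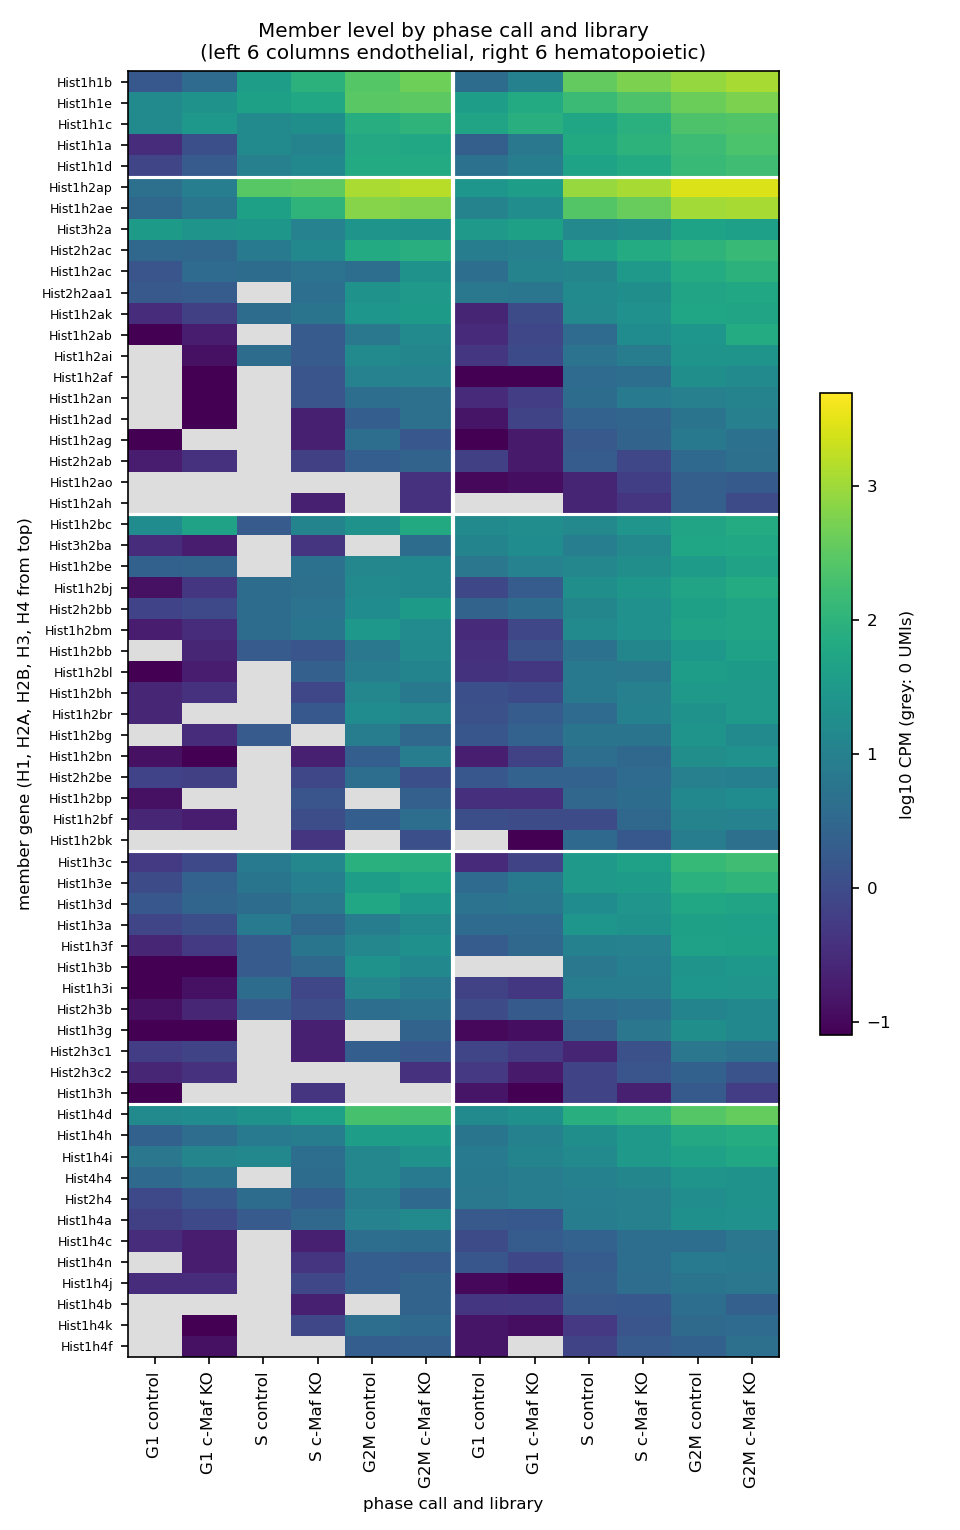
Histone genes by phase call, lineage and library: each row is a gene, ordered by type and then by UMIs, and colour is its level on a log10 CPM scale. Levels are highest in the G2M calls of both lineages and both libraries, where the summed level is 3543 to 8580 CPM.

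Several members differed widely between G1 and G2M calls. Hist1h3b, an H3 gene chosen after its values were seen, had 0 UMIs in G1-called hematopoietic cells of both libraries. Its 23.7 CPM in control G2M calls and 28.9 CPM in c-Maf KO G2M calls are at least 157-fold and 164-fold higher, taking 3 UMIs per library as the floor. Hist1h3c went from 0.302 to 132 CPM in control and from 0.763 to 166 in c-Maf KO (403-fold and 209-fold). Hist1h2af, an H2A gene also chosen after its values were seen, had 1 UMI in the G1 calls of each library. It stood at 19.8 and 15.5 CPM in G2M calls, a log2 ratio of 8.05 (6.11 to 13.94) in control and 7.47 (5.53 to 13.36) in c-Maf KO. Hist1h1b went from 3.98 to 873 and from 10.3 to 1164 CPM (218-fold and 112-fold), and Hist1h2ap from 26.4 to 2761 and from 39.5 to 2843 CPM (105-fold and 72.0-fold). Hist1h2ae differed 96.6-fold and 66.9-fold, Hist1h2ab 79.8-fold and 82.7-fold, and Hist1h1a 68.2-fold and 31.7-fold.

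At the other end, Hist3h2a differed 1.59-fold in control and 0.970-fold in c-Maf KO, Hist2h4 2.69-fold and 2.66-fold, Hist4h4 3.39-fold and 2.88-fold, Hist1h2bc 3.40-fold and 4.01-fold, and Hist1h1c 4.48-fold and 2.99-fold. Between these ends lay Hist1h1d (27.3-fold and 19.4-fold), Hist1h4d (18.5-fold and 18.0-fold), Hist1h2ac (16.7-fold and 8.33-fold), Hist1h1e (11.5-fold and 8.18-fold) and Hist1h4i (5.58-fold and 5.0-fold). The order of the members was alike in the 2 libraries, with a Pearson correlation of 0.93 and a Spearman correlation of 0.92 between their log2 G2M over G1 ratios. These run across 57 genes, which are not independent replicates and share each library's cells.

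Grouped by transcript end, the 19 members with at most 100 annotated bases after the stem-loop had a median G2M over G1 ratio of 31.7-fold in control and 25.0-fold in c-Maf KO hematopoietic cells. The 21 members with a longer tail had medians of 10.9-fold and 8.16-fold, and the 21 with no match 30.3-fold and 24.7-fold. The ranges overlapped widely, and the first group alone ran from 5.27-fold to 403-fold in control. The long-tailed group supplied 69.7% and 71.7% of the histone UMIs of G1-called hematopoietic cells and 73.6% and 63.7% of those in G1-called endothelial cells. For the 37 members with a stem-loop match and G1 UMIs in both libraries, the log2 ratio was averaged over the libraries. It had a Pearson correlation of -0.48 and a Spearman correlation of -0.45 with the log10 of the tail length. Matched members with 0 G1 UMIs in a library, Hist1h3b among them, were left out of the correlation. The points share the same cells, and A-rich stretches differ between genes too: the most A in any 20 transcript bases correlated with total UMIs at 0.40 across the 61 members (both Pearson and Spearman). The part of priming in these levels was not tested.

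**Figure D3:**
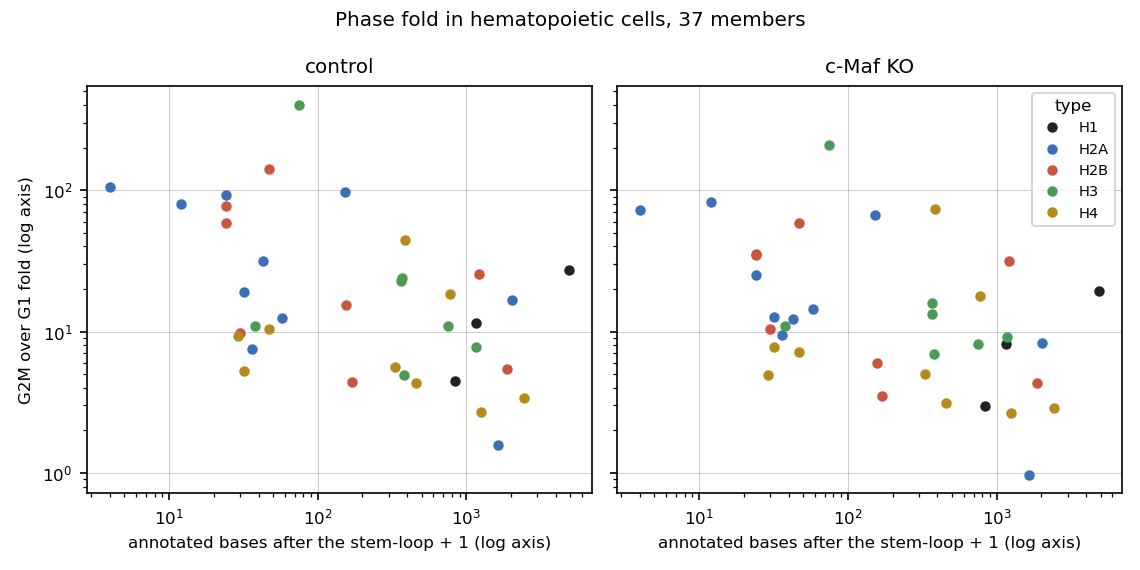
G2M over G1 fold in hematopoietic cells of each library against annotated bases after the stem-loop, both on log axes, for 37 histone genes with a stem-loop match and G1 UMIs in both libraries, coloured by type. Hist3h2a and Hist4h4, with 1643 and 2445 bases, are the low points at the right (1.59-fold and 3.39-fold in control), and Hist1h3c, with 74 bases, is the top point (403-fold in control).

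The types of histone that made up the total changed with phase. In G1-called endothelial cells H2A genes held 34.3% of histone UMIs in control and 23.1% in c-Maf KO, H1 genes 24.1% and 27.9%, H2B genes 16.3% and 24.7%, H4 genes 21.4% and 19.7%, and H3 genes 3.93% and 4.60%. In G2M-called endothelial cells H2A genes held 58.2% and 57.9% and H2B genes 4.48% and 5.28%. Hematopoietic cells moved the same way, with H2A genes at 29.9% in G1 calls and 56.8% in G2M calls of the control library. These shares count UMIs that are not scaled for length.

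The S call was also read member by member in the endothelium. From G1 to S in control endothelial cells 3 of 10 members rose (7.69% of all genes): Hist1h2ap from 4.78 to 283 CPM (log2 5.88, interval 5.47 to 6.31), Hist1h2ae from 3.14 to 42.6 (3.78, interval 2.96 to 4.52) and Hist1h1e from 15.7 to 42.6 (1.47, interval 0.74 to 2.08). Hist1h2bc was lower, at 16.9 CPM in G1 and 1.94 in S, where it held 1 UMI (-2.54, interval -8.43 to -0.63), while 5.63% of all genes were lower. Hist3h2a stood at 32.6 and 27.1 CPM (-0.22), and Hist4h4 at 3.47 CPM in G1 against 0 UMIs in S. The control S calls were shallow, with a median of 1640 UMIs per cell against 5129 in G1 calls.

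In c-Maf KO endothelial cells 14 of 20 members rose from G1 to S (9.07% of all genes) and 3 fell (7.62%). Hist1h2ap rose from 8.80 to 321 CPM (log2 5.19, interval 4.94 to 5.46), Hist1h1b from 3.71 to 97.1 (4.70, interval 4.31 to 5.13) and Hist1h2ae from 5.99 to 105 (4.12, interval 3.81 to 4.47). The 3 that fell were Hist1h2bc, from 45.4 to 11.9 CPM (-1.92, interval -2.35 to -1.54), Hist1h4i, from 12.2 to 4.24 (-1.5, interval -2.27 to -0.86), and Hist3h2a, from 23.8 to 10.8 (-1.12, interval -1.59 to -0.71). Hist1h2bc and Hist3h2a are 2 of the members that differed least between G1 and G2M calls in blood cells.

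Of the 603 S-called c-Maf KO endothelial cells, the 496 outside C-EC held, as a class, no more histone UMIs than G1-called cells. Outside C-EC the summed level was 187 CPM in 496 S-called cells and 203 CPM in 2064 G1-called cells (log2 -0.12, interval -0.24 to -0.00), whereas S-called cells of C-EC stood at 4025 CPM. In KOS_1, the largest c-Maf KO endothelial cluster, 308 S-called cells held 180 CPM and 1047 G1-called cells 183 CPM. Among single members outside C-EC, Hist1h2ap still rose, from 7.99 to 34.6 CPM, with Hist1h1b and Hist1h2ae, 3 of 14 in all (8.19% of all genes). Hist1h2bc, Hist1h4i, Hist3h2a and Hist1h1c were lower there, 4 of 14 (6.93%). In control the S calls outside C-EC held 276 CPM, but 1 cell supplied 41 of their 86 histone UMIs, and without it the level was 152 CPM against 138.5 in G1 calls.

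Within the cycling clusters the cells with the most histone RNA were those called G2M with an S score above 0. In the hematopoietic cycling cluster C1 they held 12639 CPM in control and 13120 in c-Maf KO, a median of 1.56% and 1.52% of a cell's UMIs. S-called cells of C1 held 6395 and 5624 CPM, and G2M-called cells with an S score of 0 or below held 6958 and 5257. In C-EC the same 3 classes held 5262 and 5635 CPM, 1083 and 4025 CPM, and 1386 and 1213 CPM. The score is continuous, and 15 of the 38 control and 72 of the 187 c-Maf KO C-EC cells of the first class lay within 0.2 of the value 0, as did 24 of 144 and 57 of 333 in C1. The S-called class of C-EC, 28 control cells against 107, was the one in which the 2 libraries differed most.

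Between clusters the sum was highest in C1 (9891 CPM in control and 9538 in c-Maf KO). C-EC held 2831 and 3916 CPM, Mast_cells, with 18 and 20 cells, 3058 and 3113 CPM, T-Foxp3 2110 and 2434, Neutrophils 1518 and 1055, Leukocytes_1 1207 and 1864, and B1 988 and 1024. In Mast_cells 1 control cell held 75.9% and 1 c-Maf KO cell 67.3% of the histone UMIs, and without them the levels were 827 and 1301 CPM. Most endothelial clusters were low. S held 165 and 135 CPM, S2 119 and 136, PV 334 and 270, and in c-Maf KO both KOS_1 and KOS_3 held 183. In PV 1 control cell held 28.3% of the histone UMIs. Without the top cell of each library PV stood at 248 and 262 CPM. KOS_2 stood apart, at 2975 CPM in its 21 control cells and 456 CPM in its 518 c-Maf KO cells.

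**Figure D4:**
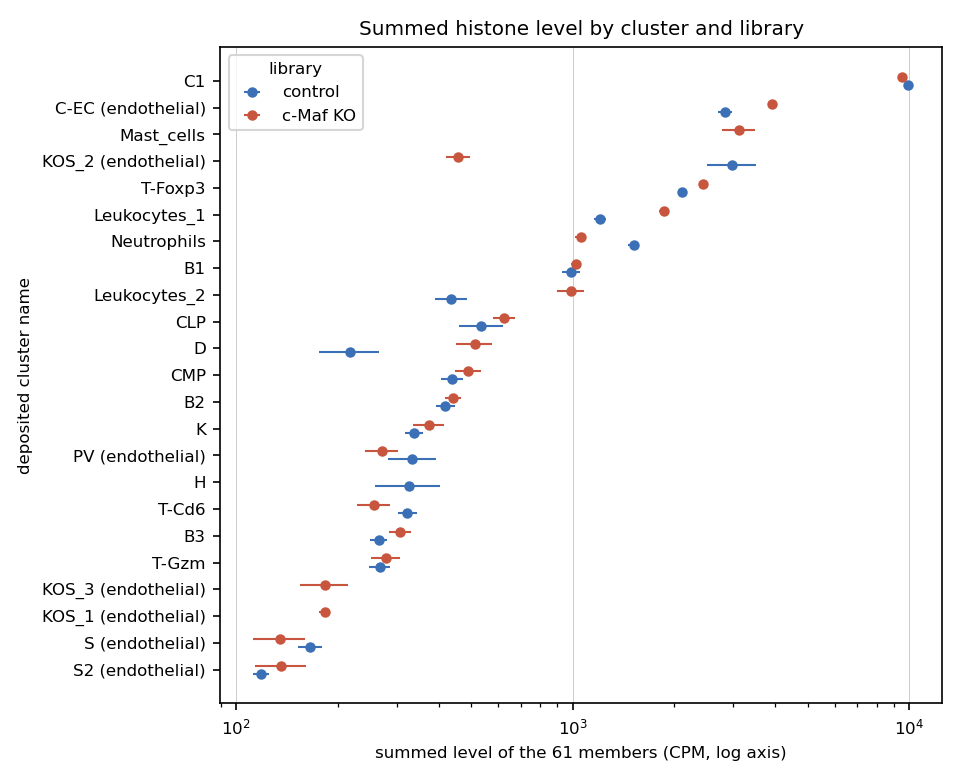
Summed histone level in CPM on a log axis for each annotated cluster with 20 or more cells in a library, control and c-Maf KO side by side; bars are exact 95% intervals for counting error only. C1 is highest at 9891 and 9538 CPM, and the endothelial clusters other than C-EC and KOS_2 lie between 119 and 334 CPM.

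In KOS_2 a few genes made up that level. Hist1h2bc stood at 1396 CPM in its control cells and 129 in its c-Maf KO cells, Hist1h4i at 749 and 52.7, and Hist1h1c at 648 and 77.4. A list of 7 megakaryocyte and platelet genes (Pf4, Ppbp, Itga2b, Gp9, Treml1, Gp1bb and Gp1ba), chosen after the data were seen, summed to 13377 CPM in the 21 control cells of KOS_2 and to 983 CPM in c-Maf KO. In the other endothelial clusters with 20 or more cells it summed to 48.4 to 130.3 CPM, and over all endothelial cells to 118 and 112. Among G1-called endothelial cells with fewer than 2 UMIs of that list, Hist1h2bc stood at 11.2 CPM in control and 36.5 in c-Maf KO, Hist1h1c at 11.7 and 22.6, Hist1h4i at 2.97 and 6.58, and Hist3h2a at 32.0 and 23.2. In those cells the list still summed to 33.4 CPM in control and 24.2 in c-Maf KO. The part of megakaryocyte RNA in these levels was not tested.

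In G1-called cells some members differed widely between cell types. Hist3h2ba, an H2B gene chosen after its values were seen, stood at 50.7 CPM in control and 40.7 in c-Maf KO cells of B1, 52.1 and 64.6 in CLP, 44.4 and 31.3 in CMP, 16.4 and 11.9 in B2 and 6.75 and 5.98 in B3. In endothelial cells it was scarce, with 5 control UMIs (0.328 CPM) and 3 c-Maf KO UMIs (0.195 CPM). Its neighbour Hist3h2a was also high in B1 (101 and 97.7 CPM) and CLP (81.4 and 81.2) and was present throughout the endothelium: 29.5 and 26.7 in S, 33.2 and 33.4 in S2, 40.7 and 36.7 in PV, 21.4 in KOS_1 and 10.4 in KOS_3. Within S2 and PV the 2 libraries were close for Hist3h2a, and the low values were those of KOS_1 and KOS_3, which are nearly all c-Maf KO cells. KOS_2, also mostly c-Maf KO cells, held 26.3 CPM in its c-Maf KO cells of all phases.

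Hist1h1c, a linker histone gene, stood at 244 and 206 CPM in B1 and 77.0 and 78.9 in B2, and at 10.8 and 26.9 in S2, 15.6 and 18.9 in S and 23.5 in KOS_1. Hist1h2bc was spread differently, with 41.3 and 50.6 CPM in K, 48.2 and 29.2 in Neutrophils, 25.2 and 20.1 in S, 30.5 and 27.3 in PV and 38.3 in KOS_1. It was 8.22 in control and 20.5 in c-Maf KO cells of S2, and 2.19 CPM in control and 0 UMIs in c-Maf KO cells of T-Cd6. Among the control values of S, S2 and PV that of S2 was the lowest, and in S and PV the c-Maf KO values were no higher than the control ones.

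**Figure D5:**
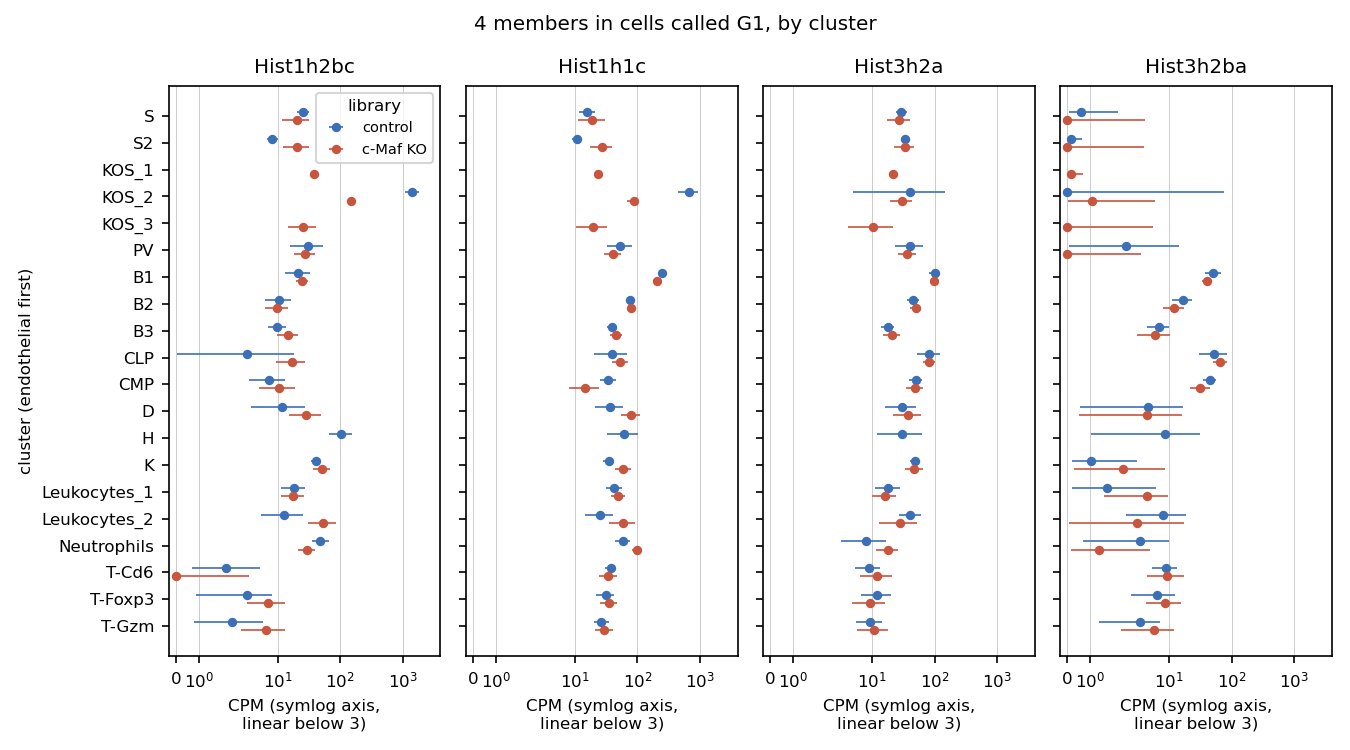
Levels of Hist1h2bc, Hist1h1c, Hist3h2a and Hist3h2ba in CPM (symlog axis, linear below 3) in G1-called cells of each cluster with 20 or more such cells, control and c-Maf KO; bars are exact 95% intervals for counting error only. Hist3h2ba is high in CLP, B1 and CMP and near 0 in the endothelial clusters, while Hist3h2a is present in both lineages and Hist1h2bc is highest in KOS_2.

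In the hematopoietic cells, sorted with the endothelium, the sum was 1707 CPM in control and 2865 in c-Maf KO (log2 0.75). There 34 of 57 members were higher (5.44% of all genes) and 0 lower (9.14%), with a median log2 ratio of 0.67 against 0.00 for all genes. Hist1h2ab had the highest ratio, from 4.79 to 19.9 CPM (2.05, interval 1.78 to 2.34), and Hist3h2a stood at 30.6 and 37.8 CPM (0.31, interval 0.18 to 0.44). C1 made up 5.91% of control and 12.5% of c-Maf KO hematopoietic cells and 63.7% and 73.2% of their histone UMIs. Within C1 the sum was level (-0.05): of 53 members 1 was higher (1.49%), Hist1h2ab at 32.9 and 75.5 CPM, and 3 were lower (2.20%), Hist3h2a, Hist1h2bg and Hist1h2bk. In G1-called hematopoietic cells, at 298 and 460 CPM (0.63), 13 of 31 members were higher (5.48%) and 0 lower (8.75%).

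The sex of the pooled mice moved with these values. Cells were typed by UMIs of X-inactivation or Y-linked transcripts, and cells with neither or both were left out. In female-type endothelial cells (772 control and 1692 c-Maf KO) the sum was 344 and 761 CPM (log2 1.15), with 22 of 26 members higher (11.7% of all genes). In male-type endothelial cells (846 and 328) it was 159 and 732 CPM (2.20), with 10 of 11 higher (14.2%). The endothelial rise was thus present in both types. In S-called endothelial cells the log2 ratio of the sum was 0.094 (interval -0.10 to 0.30) in the female type and 1.61 (0.94 to 2.47) in the male type. In C-EC it was 0.51 and 0.0087. In G1-called endothelial cells Hist1h2bc had log2 ratios of 1.05 and 3.22, and Hist1h2ac of 0.22 and 3.33, in the female and male types. The ratios of C-EC and of these 2 genes are given without intervals. Hist1h2ac held only 26 UMIs over all control endothelial cells, so its ratios by type rest on few UMIs. In male-type endothelial cells the top cell held 13.8% of the histone UMIs in control and 7.22% in c-Maf KO. In hematopoietic cells the female-type sums were 2609 and 2963 CPM (0.18), with 3 of 53 members higher (2.72%) and 2 lower (5.54%), and the male-type sums 935 and 3184 CPM (1.77), with 39 of 41 higher (10.5%). Each type stands for 1 mouse per library, so the spread between mice and the effect of genotype cannot be told apart.

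The genes that process, vary and deliver histones were read from lists beside the members. Of 18 genes for histone mRNA processing and decay, 2 were higher and 1 lower in c-Maf KO endothelial cells (median log2 0.16), counts no larger than the shares of all genes (14.2% and 15.5%) would give in a list of that size. The 3 were Eri1, an exonuclease that trims the stem-loop end, at 21.4 and 35.5 CPM (0.73), Cstf2, a cleavage factor (0.60), and Tut7, which adds uridines to histone mRNA, at 280 and 175 CPM (-0.68). Slbp, which encodes the stem-loop binding protein, stood at 101 and 94.6 CPM (-0.09) and was called neither way. In G1-called endothelial cells 0 of the 18 were higher (11.0% of all genes) and 1 was lower (13.8%). That gene was Slbp, at 92.6 and 59.7 CPM (-0.63), and the count is no larger than the share of all genes would give.

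Against the same 14.2% and 15.5% of all genes, of 11 replication-independent histone genes 5 were higher and 0 lower (median log2 0.35), among them H1fx, from 9.73 to 58.7 CPM (2.59), H2afx, from 38.4 to 96.0 (1.32), and Cenpa, the centromeric H3, from 66.1 to 158 (1.25). Of 20 histone chaperones 11 were higher and 0 lower (0.68), with Tonsl at 1.98, Chaf1a, of the assembly factor CAF-1, from 7.27 to 27.8 CPM (1.93), and Chaf1b at 1.71. All 20 S phase markers were higher (median 1.69; Hells 2.66, Uhrf1 2.59, Cdc6 2.35), as were all 16 G2 and M markers (1.59; Top2a 1.80, Ccnb2 1.76, Mki67 1.72). Median log2 ratios of the cycle markers were thus close to the members' own median of 1.58.

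Within C-EC 5.70% of all genes were higher and 14.6% lower in c-Maf KO, against which the lists' counts are read here. Of the cycle markers 0 of 19 S markers were higher and 3 lower (median log2 -0.10; Cdc45 -0.83), and 0 of 16 G2 and M markers were higher and 1 lower (-0.37; Ube2c -0.70). Of 10 variants only H1fx was called, at 56.5 and 143 CPM (1.33). Of 20 chaperones Ipo4 was higher (1.29) and Asf1b lower (-0.83), and of 18 processing genes 2 were lower, Lsm10, of the U7 particle, at 39.2 and 12.8 CPM (-1.62), and Tut7 (-0.77). In the same cells the summed histone level had a log2 ratio of 0.47. The lists and the members were chosen with earlier results of these data known, and they describe these 2 libraries.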

How the data were processed

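Single-cell RNA libraries were made on the 10X Chromium platform from sorted liver cells, and the labels' protocols also name a kit for polyadenylated RNA. Per the submitters' processing notes, Cell Ranger 4.0.0, Seurat 3.2.3, FastQC 0.11.3 and the build mm10 were used. No source used here gives the settings for strand or for reads that match several genes. The authors deposited raw UMI counts per gene and barcode, and an annotation with cluster, phase call, phase score and percent of mitochondrial reads for each cell. The members and lists were chosen with earlier results of these data known.

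For each class of cells and library, a gene's UMIs were summed and given per 1000000 UMIs of the class (CPM). Intervals are exact Poisson for levels, exact Clopper-Pearson for shares and exact conditional binomial for ratios, at 95%. Log2 ratios have 0.5 UMI added to each sum. Calls need 1.5-fold, an interval that excludes equality and 50 UMIs over both sums; the calls were checked on simulated counts. No test was run, since each group is 1 library. Named were the 15 members with the most UMIs, members called against the majority, and up to 3 genes per list and direction. The 3 highest and 3 lowest ratios in the endothelial comparison and in S over G1 of each library were named too. Hist1h2af, Hist1h3b, Hist3h2ba, Hist1h3d and Hist2h2bb were named after their values were seen. Doublets were kept; Scrublet's own threshold marked 1 control cell, so a score of 0.25 was used for an alternative, which marked 167 control cells (2.18%) and 190 c-Maf KO cells (2.33%). Python 3.11.15, numpy 2.4.6, scipy 1.17.1, pandas 2.3.3 and scanpy 1.11.5 were used. Alternatives changed the denominator, the cells kept and the call rule.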

Additional observations from a re-analysis of the deposited data

Results flagged for a closer look

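Hist3h2a had ratios of opposite sign in the 2 lineages. Its log2 ratio between the libraries (c-Maf KO over control) was -0.62 (-0.80 to -0.44) in endothelial cells and 0.31 (0.18 to 0.44) in hematopoietic cells, where it was called neither way. Within the hematopoietic cluster C1 Hist3h2a was lower in c-Maf KO (71.6 and 46.2 CPM, log2 -0.63), and in G1-called cells of B1 (101 and 97.7 CPM) and CLP (81.4 and 81.2) the libraries were close. In hematopoietic cells 2 members had ratios of opposite sign by the sex type of the cells. Hist1h2bg had a log2 ratio of -0.74 (-1.15 to -0.35) in female-type and 2.14 (1.25 to 3.22) in male-type cells, and Hist1h3d -0.36 (-0.60 to -0.11) and 1.71 (1.32 to 2.14). These differences were not tested, since each rests on 1 library per group and, for the sex types, on 1 mouse per library.

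Barcodes that the authors' annotation leaves out also held histone UMIs. Their summed level was 1597 CPM (1571 to 1623) over 1369 control barcodes and 2147 CPM (2116 to 2179) over 892 c-Maf KO barcodes. Annotated cells held 1160 and 1926 CPM. Of the barcodes left out 246 and 250 had over 5000 genes, and they held 7573170 of 8986151 and 7419537 of 8506915 UMIs of all genes, with histone levels of 1828 and 2344 CPM.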

How the results depend on the processing

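No paired analysis was possible because each group is 1 library, and no replicate could be left out for the same reason. The cause of each change below was not tested. The endothelial log2 ratio of the summed level (1.64) was 1.15 and 2.20 in cells of female and male type, 1.80 with the other denominator (all UMIs but those of mitochondrial, ribosomal protein, hemoglobin and immunoglobulin genes), 1.49 as the mean of each cell's share, 1.40 without Hist1h2ap, 0.61 in G1 calls, 1.72 without KOS_2, 1.76 without cells of 2 or more megakaryocyte UMIs, 0.45 at the control phase mix and 0.21 at the control cluster mix. The other 6 settings gave 1.60 to 1.67. In S calls (0.47) it was 0.18 in cells under 10% mitochondrial reads, 0.094 and 1.61 in female-type and male-type cells, 0.66 without the top cell, 1.27 as the mean share and 0.69 without Hist1h2ap. In C-EC (0.47) it was 0.39 under 10% mitochondrial reads, 0.0087 in male-type cells and 0.63 with the other denominator. In hematopoietic cells (0.75) it was 0.70 under 10% mitochondrial reads, 0.18 and 1.77 by sex type, 0.71 with the other denominator, 0.81 as the mean share, 0.80 without Hist1h2ap and 0.50 without C1.

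In the endothelium 30 of the 33 members tested were called higher (14.2% of all genes). In male-type cells it was 10 of 11 tested (14.2%) and in G1 calls 10 of 17 (11.0%). By fold and UMI minimum only, without an interval, 10 were higher at the control phase mix and 7 at the control cluster mix. The share of all genes was not counted at these mixes. The 1 called lower was 0 in male-type cells, with the other denominator, in G1 calls and at 2-fold. Again without an interval, the count lower was 0 as the mean share and 5 at the cluster mix. Without the cycling cluster the S over G1 ratio reversed in c-Maf KO endothelial cells, from 1.97 to -0.12. There 3 of 14 members were higher (8.19% of all genes) and 4 lower (6.93%), in place of 14 of 20 (9.07%) and 3 (7.62%). The ratio was 1.01 in place of 2.11 in control endothelial cells. In hematopoietic cells it was 1.55 in place of 3.0 in control and 1.58 in place of 2.89 in c-Maf KO. In control 13 of 25 were higher and 4 lower, in place of 25 of 31 (13.6%) and 1 (20.7%). In c-Maf KO 14 of 28 were higher and 2 lower, in place of 32 of 38 (16.3%) and 1 (24.0%). Shares of all genes are not given for hematopoietic cells without C1. Without doublets the endothelial S over G1 ratios were 1.91 in control and 1.89 in c-Maf KO. The other denominator gave 2.94 in c-Maf KO hematopoietic cells. In G1-called endothelial cells Hist1h2bc (1.42) was 1.05 and 3.22 in cells of female and male type, 1.63 without KOS_2 and 1.70 without cells holding the megakaryocyte list. Hist1h2ac (1.37) was 0.22 in female-type cells. Alternatives on KOS_2, the megakaryocyte list and the mixes were chosen after seeing the data. So were those that left out Hist1h2ap, left C1 out of the hematopoietic sum, or read single members in G1 calls. At this depth 28 members had too few endothelial UMIs to be read singly.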
